A study of Mus musculus with 16 samples.

Results

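The 7 control arrays of a mouse tumor study were compared among themselves by how much melanocyte transcript each one carried. Control arrays 4, 5, 6 and 7, which had the highest mean of 6 melanocyte marker genes, were set beside control arrays 1, 2 and 3, which had the lowest, and every named gene was followed along this order. The 2 sides hold 4 and 3 of the 7 control arrays, out of 16 arrays in the series. The arrays were chosen by these measured levels and not by a label, so differences between the sides and along the order are given as descriptions, with no test.

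The series asked how tissue at the site of a B16 tumor changes after inoculation. B16 is a pigmented melanoma line of C57BL/6 mice. Total RNA was measured on Illumina bead arrays in tumor microenvironment at day 4 (4 arrays), tumor microenvironment at day 14 (5 arrays) and control tissue (7 arrays), and the labels give C57BL/6 and an age of 8 weeks for all 16 samples. The tissue that served as control is not named, nor is it said whether a replicate number stands for a separate mouse or how many cells were inoculated. They name no treatment or genotype that would tell one control array from another.

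Melanocytes are the pigment cells of skin and hair. They make melanin inside melanosomes, and the transcription factors Sox10 and Mitf switch on the genes for its enzymes and for melanosome proteins. In mouse skin away from the ears, tail and feet most melanocytes sit in hair follicles, and B16 cells carry the same pigment genes. Transcripts of both kinds of cell therefore meet at the same probes. In bulk RNA, fewer cells of a type and less of its RNA per cell cannot be told apart.

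Promoters of the 3 melanin enzymes among the markers are shown because these enzymes carry out the pigment synthesis that defines the cell, and because one short motif, an E-box of the kind Mitf binds, is shared by all 3. The sequences are from RefSeq on build GRCm38.p6 and run from 250 bases before to 50 after the transcript start, each on its gene's strand: Tyr at chr7:87493463-87493762 (minus), Tyrp1 at chr4:80833963-80834262 (plus) and Dct at chr14:118052197-118052496 (minus). Capitals mark CATGTG, or CACATG where the motif lies on the other strand.
Tyr: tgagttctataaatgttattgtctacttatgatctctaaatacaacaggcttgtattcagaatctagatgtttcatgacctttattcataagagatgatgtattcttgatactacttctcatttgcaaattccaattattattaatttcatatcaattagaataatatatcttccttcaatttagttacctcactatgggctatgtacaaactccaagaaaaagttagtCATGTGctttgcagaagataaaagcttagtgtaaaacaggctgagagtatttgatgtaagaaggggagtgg
Tyrp1: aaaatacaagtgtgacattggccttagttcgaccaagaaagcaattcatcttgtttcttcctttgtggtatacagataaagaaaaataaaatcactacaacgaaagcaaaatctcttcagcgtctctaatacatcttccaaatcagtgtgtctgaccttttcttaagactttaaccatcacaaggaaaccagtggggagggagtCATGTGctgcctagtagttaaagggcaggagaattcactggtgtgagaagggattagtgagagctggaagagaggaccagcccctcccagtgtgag
Dct: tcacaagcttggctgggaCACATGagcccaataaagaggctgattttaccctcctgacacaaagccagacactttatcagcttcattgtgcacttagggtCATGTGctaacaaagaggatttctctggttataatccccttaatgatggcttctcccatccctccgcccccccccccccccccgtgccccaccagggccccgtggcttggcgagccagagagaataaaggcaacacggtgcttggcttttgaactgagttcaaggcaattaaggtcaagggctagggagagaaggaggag
The motif was found 1 time in Tyr, 1 time in Tyrp1 and 2 times in Dct. Of 32851 promoters in the table, 4650 (14.2%) hold it on either strand. A promoter entry was found for 3 of the 6 markers, and for 19 of the 26 melanocyte genes with a signal, 6 of which hold the motif. These 6 include the 3 enzymes shown, which were picked in part because they share it, so the count is no measure of enrichment. A match is a run of letters and was not shown to be a bound site.

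Melanocyte transcripts did not follow the group labels. Log2 signal below means background-corrected, quantile-normalized intensity on the log2 scale. The mean of the 6 markers was 12.59, 12.32, 13.29 and 12.22 on control arrays 4, 5, 6 and 7, against 5.92, 11.75 and 10.69 on control arrays 1, 2 and 3. On the tumor arrays it ran between 9.60 and 13.39, so 6 of the 7 control arrays lay within the tumor range and control array 1 lay below it. The widest step in the order was between control array 1 and control array 3, and the step at the border of the 2 sides, between 12.22 on array 7 and 11.75 on array 2, was much smaller.

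A cut at a mean of 10.5, with which the sides were first described, would put 6 control arrays on the high side with these 6 markers. The division by the 4 highest arrays was used instead. The same 4 arrays were highest, in the same order of 7, in every one of the normalizations tried and with 26 melanocyte genes in place of 6. With the 26 genes the means were 10.47, 10.32, 11.07 and 10.04 on arrays 4 to 7, against 7.10, 9.85 and 9.03 on arrays 1 to 3.

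Other properties of the arrays moved with the order only in part. The number of detected probes was 20868, 21100, 19466 and 20548 on arrays 4 to 7, against 20324, 20045 and 20102 on arrays 1 to 3. Over all genes, control arrays 1, 4, 5 and 7 correlated most closely with a tumor array, at 0.971, 0.984, 0.962 and 0.98. Arrays 2 and 3 were closest to each other (0.981). Control array 6 stood apart from the other control arrays. It correlated at no more than 0.917 with any of them, and at 0.98 with day 4 array 1. It lay at 77.3 on the first principal component of the control arrays, which held 51.4% of their variance, with control array 1 at the other end at -43.4. Control array 5 lay alone at 50.9 on the second component, which held 19%.

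**Figure D1:**
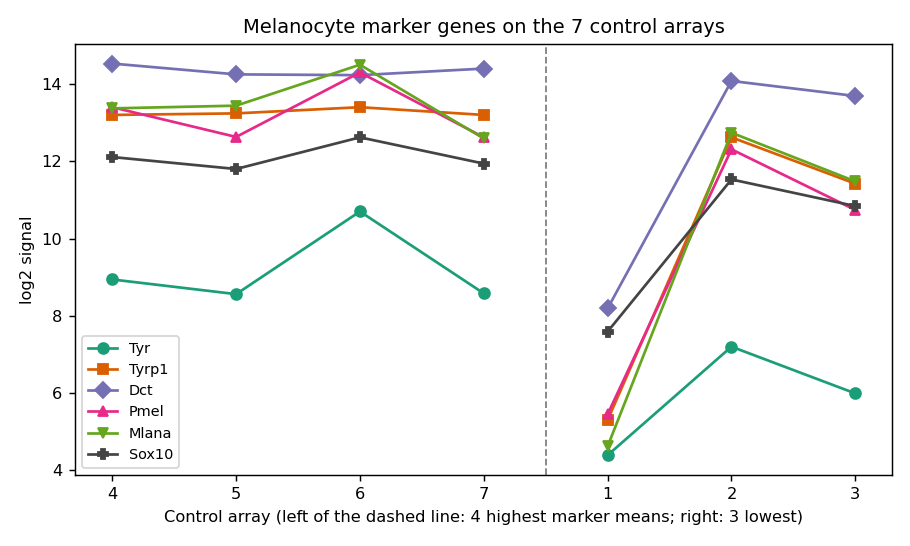
Log2 signal of the 6 melanocyte marker genes (vertical axis) on each control array (horizontal axis), with arrays 4 to 7 left of the dashed line and arrays 1 to 3 right of it. Points are single arrays and lines join the values of one gene. On array 1 all 6 genes have their lowest value. On arrays 2 and 3 the genes other than Tyr lie closer to arrays 4 to 7 than to array 1, and Tyr on array 3 (5.99) lies closer to array 1 (4.39).

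Among the markers, the enzymes of melanin synthesis were measured first. Tyr, tyrosinase, which starts melanin synthesis, had log2 signals of 8.94, 8.56, 10.70 and 8.58 on arrays 4 to 7, against 4.39, 7.20 and 5.99 on arrays 1 to 3. Tyrp1, a melanosome enzyme that stabilises tyrosinase, had 13.20, 13.24, 13.40 and 13.20, against 5.30, 12.62 and 11.42. Dct, dopachrome tautomerase, had 14.53, 14.25, 14.23 and 14.40, against 8.19, 14.08 and 13.69. With these probes all 3 enzymes were higher on each of arrays 4 to 7 than on any of arrays 1 to 3. For Dct this depended on the probe, since array 2 came within a narrow margin of array 6. With the other Dct probe array 2 (14.22) was above array 6 (14.14), so the sides overlapped.

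Of the structural and regulatory markers, Pmel and Sox10 did not overlap between the sides and Mlana did. Pmel, which forms the fibrils on which melanin is laid down, had 13.40, 12.63, 14.30 and 12.62 on arrays 4 to 7, against 5.45, 12.31 and 10.74 on arrays 1 to 3. Sox10, a transcription factor of melanocytes and Schwann cells, had 12.11, 11.80, 12.62 and 11.94, against 7.59, 11.53 and 10.84. Mlana, a melanosome protein, had 13.37, 13.44, 14.50 and 12.59, against 4.62, 12.74 and 11.48, so that array 2 was above array 7. Tyr and Mlana had detection p-values above 0.05 on array 1, and the other 4 markers were detected there.

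The size of these differences rested largely on control array 1. The mean of arrays 4 to 7 minus the mean of arrays 1 to 3 was 3.34 for Tyr, 3.48 for Tyrp1, 2.37 for Dct, 3.74 for Pmel, 3.86 for Mlana and 2.13 for Sox10 (log2 differences, n = 4 and 3). With array 1 left out it was 2.60 for Tyr, 1.24 for Tyrp1, 0.47 for Dct, 1.71 for Pmel, 1.37 for Mlana and 0.94 for Sox10. With array 6 left out it was 2.84, 3.43, 2.41, 3.38, 3.52 and 1.97 in the same order of genes. Where a gene had several probes they gave close values: 3.48, 3.71 and 3.77 for the 3 Tyrp1 probes and 2.37 and 2.47 for the 2 Dct probes.

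Of 24 other melanocyte and pigment genes listed, 20 were measured and 16 of these had a positive difference. "Set apart" here means that the 4 values on one side lay wholly above or below the 3 on the other and that the means differed at least 2-fold. By this rule 183 of 9450 genes (1.94%) were higher on arrays 4 to 7 and 66 (0.698%) were lower. The sides were chosen by melanocyte genes, so the 5 markers and 11 other melanocyte genes among the 183 follow from that choice. The median difference of the 20 other melanocyte genes was 1.26, beside -0.03 over all 9450 genes, of which 4438 had a positive and 5012 a negative difference.

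Among the other melanocyte genes, 3 membrane proteins of the melanosome had the largest differences, while Gpnmb, another melanosome membrane protein, differed by 1.70. Oca2, a melanosome membrane protein that sets melanosome acidity, had 10.10, 9.94, 11.36 and 9.27 on arrays 4 to 7, against 4.41, 8.22 and 5.01 on arrays 1 to 3, a difference of 4.29 (3.55 without array 1). Slc45a2, a melanosome transporter, had 11.60, 11.46, 12.82 and 10.78, against 4.64, 10.12 and 8.87, a difference of 3.79 (2.17 without array 1). Gpr143, a receptor of the melanosome membrane, had 9.18, 9.07, 11.01 and 8.18, against 4.38, 7.88 and 5.49, a difference of 3.44 (2.68 without array 1). Each of these 3 genes followed the order of the marker mean over all 7 arrays, but Oca2 was detected on only 1 of arrays 1 to 3.

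Some regulators of the lineage were set apart as well. Of the transcription factors among the other melanocyte genes, Sox5 (a difference of 0.65) and Irf4 (-0.34) were not. Mitf, the master transcription factor of the lineage, had 7.05, 6.66, 7.42 and 6.47 on arrays 4 to 7, against 4.60, 6.19 and 5.34 on arrays 1 to 3. Tbx2, a T-box factor of melanocytes, had 7.82, 7.59, 8.37 and 7.12, against 4.77, 6.82 and 6.36, and Cited1, a transcriptional co-regulator, had 9.60, 9.53, 10.75 and 8.89, against 4.60, 8.25 and 6.88. The differences were 1.52 for Mitf, 1.74 for Tbx2 and 3.12 for Cited1, and none of the 3 overlapped between the sides. Mc1r, the receptor for melanocyte-stimulating hormone, had a difference of 2.08 but overlapped, with 7.73 on array 7 and 7.84 on array 2.

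The genes that move melanosomes along the cytoskeleton were set apart in part. Rab27a, which links melanosomes to the motor complex, had 11.56, 11.38, 12.49 and 11.39 on arrays 4 to 7, against 9.42, 11.35 and 10.60 on arrays 1 to 3. Rab38, a GTPase that delivers enzymes to melanosomes, had a difference of 1.66, and Myo5a, the myosin motor, one of 1.24. Mlph, the adaptor between Rab27a and the motor, differed by 1.26 but overlapped. Rab32, a close relative of Rab38, differed by 0.16.

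Not all genes used by melanocytes followed the order. Kit, the receptor for stem cell factor, which mast cells also carry, had 9.57, 8.91, 9.55 and 8.58 on arrays 4 to 7, against 8.61, 9.90 and 9.57 on arrays 1 to 3. Ednrb, the endothelin receptor B, had 11.05, 11.35, 10.48 and 10.89, against 11.56, 11.30 and 11.65. The differences were -0.21 for Kit, -0.56 for Ednrb, -0.34 for Irf4 and -0.25 for Hps4, and all 4 genes overlapped. On array 1, where 4 of the 6 markers were detected, 12 of the 20 other melanocyte genes were detected as well, against 19 or 20 on each other control array.

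Outside the melanocyte lists, 167 genes were set apart upward, with a median difference of 1.39. Syt4, a synaptotagmin of regulated secretion, had 13.06, 12.55, 13.71 and 12.44 on arrays 4 to 7, against 4.54, 12.08 and 11.21 on arrays 1 to 3, a difference of 3.66 (1.29 without array 1). Tspan10, a tetraspanin of pigment cells, had 11.34, 11.25, 12.37 and 10.94, against 4.48, 10.41 and 8.54, a difference of 3.67 (2.00 without array 1). Ptgds, a prostaglandin D2 synthase, had 11.26, 11.29, 11.91 and 10.79, against 5.41, 10.56 and 9.25, a difference of 2.90 (1.40 without array 1). All 3 had by far their lowest value on array 1, and their values on arrays 2 and 3 lay nearer to those of arrays 4 to 7.

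A second set of these genes depended less on array 1. Met, the receptor of hepatocyte growth factor, had 9.55, 9.22, 11.08 and 8.74 on arrays 4 to 7, against 6.52, 7.67 and 6.79 on arrays 1 to 3, a difference of 2.66 (2.42 without array 1). Igsf11, a cell adhesion molecule, had 8.43, 7.41, 9.53 and 7.43, against 4.74, 6.52 and 4.78, a difference of 2.86 (2.55 without array 1). Gsta2, a glutathione transferase, had 9.70, 9.59, 11.32 and 8.76, against 6.55, 8.72 and 6.16, a difference of 2.70 (2.40 without array 1). On Gsta2, array 7 was above array 2 only narrowly, and Igsf11 was detected on only 1 of arrays 1 to 3.

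The others among the 15 largest upward differences were between 2.19 and 2.61. They were Aph1a, a subunit of gamma-secretase (2.61), Metrn, a secreted factor of glial cells (2.59), Insc, an adaptor of spindle orientation (2.56), Mgarp (2.51), Tulp2 (2.36), Sytl2, which tethers vesicles to Rab27 proteins (2.35), Unc5c, a netrin receptor (2.35), Slc6a17, a vesicle transporter of neurons (2.34), and Pik3r3, a regulatory subunit of PI3 kinase (2.19). Metrn had 11.90, 11.90, 11.69 and 12.19 on arrays 4 to 7, against 7.40, 10.40 and 10.18 on arrays 1 to 3. Among genes of Schwann cells and nerve, 3 of 9 were set apart upward, beside 1.94% of all genes. They were the marker Sox10, Cdh19, a cadherin of Schwann cells and their precursors (1.21), and Mbp, a myelin protein (1.10), while the median of the 9 was -0.22 and changed sign under some settings.

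Cell cycle genes were higher together on arrays 4 to 7. All 27 measured members had a positive difference, beside 4438 of all 9450 genes. Of the 27, 7 were set apart upward, beside 1.94% of all genes, and the median was 0.81. The mean of the 27 genes was 9.65, 9.13, 9.98 and 9.24 on arrays 4 to 7, against 8.49, 8.95 and 8.63 on arrays 1 to 3, so the sides did not overlap. Mcm2, a subunit of the replicative helicase, had 10.75, 10.51, 11.67 and 10.22, against 8.98, 10.01 and 9.18, and Foxm1, a transcription factor of mitotic genes, had 9.19, 8.82, 9.88 and 8.74, against 6.89, 8.32 and 7.98. Both followed the order of the marker mean on all 7 arrays, with differences of 1.40 and 1.43. The others set apart were Rrm2 (1.39), Aurka (1.35), Cdk1 (1.06), Birc5 (1.06) and Bub1b (1.06).

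Energy metabolism lists were also higher. The background for their counts is again 4438 of 9450 genes with a positive difference and 1.94% set apart upward. Of 19 glycolysis and hypoxia genes, 15 had a positive difference and 2 were set apart, Pgk1 (1.52) and Aldoc (1.43), both glycolytic enzymes. Pgk1 had 13.52, 13.88, 13.49 and 13.27 on arrays 4 to 7, against 11.54, 12.89 and 11.63 on arrays 1 to 3. Car9, a carbonic anhydrase induced by hypoxia, differed by 1.73, but array 3 with 9.70 was the highest of all 7 and array 1 with 5.19 the lowest. Of 17 respiratory chain and ATP synthase genes, 17 had a positive difference and 0 were set apart, with a median of 0.39 and list means of 11.51 to 11.90 on arrays 4 to 7, against 11.26 to 11.40 on arrays 1 to 3.

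**Figure D2:**
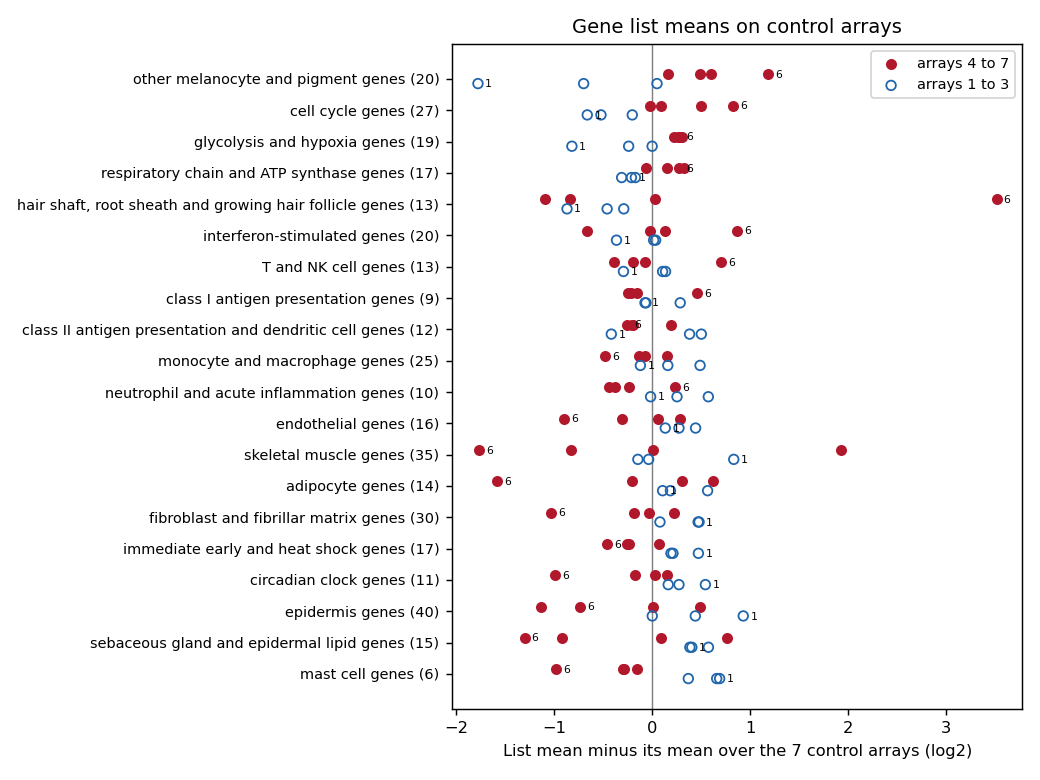
Mean log2 signal of each gene list on each control array, minus the mean of that list over the 7 control arrays (horizontal axis), with the number of genes measured in brackets. Filled points are arrays 4 to 7 and open points arrays 1 to 3, and arrays 6 and 1 carry their numbers. Cell cycle, glycolysis and respiratory chain means lie higher on arrays 4 to 7 without overlap. Mast cell, stress and clock means lie lower without overlap, the clock means only narrowly (8.92 on array 5, 8.93 on array 3). The hair and muscle lists are spread by 1 array each.

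The genes set apart downward were fewer and their differences smaller. Aadacl4fm4 had the largest, with 6.16, 5.14, 4.93 and 7.04 on arrays 4 to 7, against 7.58, 7.75 and 8.02 on arrays 1 to 3, a difference of -1.97. It was detected on only 3 of arrays 4 to 7, and the authors' value table gave a difference of -0.98. Saa3, an acute-phase serum amyloid, had 8.03, 8.91, 7.03 and 8.25, against 9.40, 10.25 and 9.74 (-1.74), and Lcn2, a siderophore-binding protein of innate defence, had 8.31, 8.01, 6.68 and 6.30, against 8.32, 9.76 and 8.98 (-1.70). Il1b, the cytokine interleukin 1 beta, had 6.31, 6.50, 6.91 and 7.20, against 8.52, 8.17 and 8.10 (-1.54). Of these, Lcn2 came closest to overlapping, since arrays 4 and 1 were nearly level.

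The other 11 of the 15 largest downward differences were between -1.52 and -1.29. They were Chil1, a chitinase-like protein (-1.52), Fosb, an immediate early transcription factor (-1.48), Cpz, a carboxypeptidase of the matrix (-1.44), Ptn, the growth factor pleiotrophin (-1.44), Mmp3, a matrix metalloproteinase (-1.43), Mst1r, a receptor tyrosine kinase of epithelial cells and macrophages (-1.42), Cyp7b1, an oxysterol hydroxylase (-1.39), Mfsd2a, a lipid transporter (-1.36), Cx3cl1, the chemokine fractalkine (-1.35), Serpina3n, a protease inhibitor (-1.31), and Cd34, a surface protein of stem cells and endothelium (-1.29). Of the 10 neutrophil and acute inflammation genes, 2 were set apart downward, Il1b and the chemokine Cxcl1 (-1.28), beside 0.698% of all genes. The median of the 10, -0.55, changed sign under some settings.

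Mast cell genes were lower as a list. All 6 measured members had a negative difference, beside 5012 of all 9450 genes, the background for the counts of negative differences in the lists that follow too. Of the 6, 2 were set apart downward, beside 0.698% of all genes, and the median was -0.97. The list mean was 8.52, 8.38, 7.69 and 8.37 on arrays 4 to 7, against 9.36, 9.04 and 9.33 on arrays 1 to 3. Hdc, which makes histamine, had 7.80, 7.24, 7.40 and 7.66, against 9.27, 8.29 and 8.75, a difference of -1.24, and Mrgprb2, a receptor of mast cells, differed by -1.18. Cpa3, a mast cell carboxypeptidase, differed by -0.97 and did not overlap, but stayed under 2-fold.

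Immediate early and clock genes also had list means that did not overlap, but for clock genes only narrowly. The clock mean was 8.92 on array 5 and 8.93 on array 3. Of 17 immediate early and heat shock genes, 16 had a negative difference and 1, Fosb, was set apart, with a median of -0.48. Hspa1a, an inducible heat shock protein, had 9.35, 9.03, 9.11 and 10.25 on arrays 4 to 7, against 11.32, 10.19 and 10.48 on arrays 1 to 3, so arrays 7 and 2 overlapped. Of 11 circadian clock genes, 10 had a negative difference and 1 was set apart. This was Per2, a repressor of the clock, with 9.23, 9.72, 8.46 and 9.60, against 10.90, 10.32 and 9.86 (-1.11). Times of collection are not given in the sources used here, and their part in these differences was not tested.

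Markers of other tissues were checked beside these groups, since the labels do not name the tissue. Krt14, the keratin of basal epidermis, lay between 14.18 and 14.45 on arrays 4 to 7, against 14.31 to 14.50 on arrays 1 to 3, and Krt10, of upper epidermis, and Acta1, the actin of skeletal muscle, were above 13 on all 7. RNA of epidermis and of skeletal muscle was therefore present on every control array. All 40 epidermis genes measured had a negative difference and 0 were set apart, with a median of -0.70 and list means of 10.26 to 11.89 on arrays 4 to 7, against 11.40 to 12.33 on arrays 1 to 3.

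The widest epidermal difference came from stress keratinocyte genes on single arrays. Krt16, a keratin of activated epidermis, had 9.60, 5.62, 8.79 and 9.96 on arrays 4 to 7, against 13.74, 8.84 and 10.27 on arrays 1 to 3, a difference of -2.46 that was -1.06 without array 1. Sprr1b, a cornified envelope protein, had 10.71, 5.00, 9.81 and 10.75, against 13.41, 9.94 and 10.58, a difference of -2.24 that was -1.19 without array 1. In both genes array 1 was the highest and array 5 the lowest of the 7, and the other 5 arrays overlapped. The part of epidermis in the differences above was not tested.

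Fibroblast and matrix genes were lower in 29 of 30 measured members, with 1 set apart and a median of -0.67. That gene was Lum, the matrix proteoglycan lumican, with 12.77, 12.86, 11.38 and 12.80 on arrays 4 to 7, against 13.86, 13.04 and 13.51 on arrays 1 to 3. Col1a1, a chain of type I collagen, had 13.68, 13.78, 12.35 and 13.31, against 14.21, 13.30 and 14.07, and overlapped. None of the 15 sebaceous and epidermal lipid genes (median -0.78), 14 adipocyte genes (-0.60) or 16 endothelial genes (-0.51) was set apart, and these 3 medians kept their sign under every setting. In the adipocyte list array 6 was lowest with a mean of 8.88, against 10.26 to 11.08 on the other 6 arrays.

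No member of the lists for immune cells was set apart, other than the mast cell and inflammation genes above. The medians were -0.27 over 25 monocyte and macrophage genes, -0.18 over 12 class II antigen presentation genes, 0.10 over 13 T and NK cell genes, 0.17 over 20 interferon-stimulated genes and close to 0 over 9 class I genes. In all 5 lists 0 genes were set apart, the sides overlapped, and the median changed sign under some settings. Mrc1, the mannose receptor of tissue macrophages, had 11.97, 12.11, 11.17 and 12.18 on arrays 4 to 7, against 12.85, 12.30 and 12.50 on arrays 1 to 3, falling along the order of the marker mean on each step. C1qb, a complement subunit of macrophages, had 12.50, 12.61, 12.60 and 12.00, against 12.40, 12.88 and 12.81. Red blood cell and B cell lists had 1 measured gene each, with differences of -1.14 for Alas2 and -0.31 for Cd79b.

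Hair and muscle list means each had 1 array above the rest. Krt71, a keratin of the inner root sheath of growing hair, had 7.89, 4.54, 14.35 and 4.39 on arrays 4 to 7, against 4.44, 5.40 and 5.86 on arrays 1 to 3, and Krt27, another root sheath keratin, had 9.12, 4.82, 14.18 and 4.86, against 4.79, 6.29 and 7.07. Both were far higher on array 6, and next highest on array 4. The mean of the 13 hair genes was 11.14 on array 6 and 6.53 to 7.65 on the other 6 arrays. The median difference of this list was 1.39, with 0 genes set apart, and its sign changed under some settings.

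The mean of the muscle list was highest on array 5, but its genes did not all follow that array. Of the 35 genes 32 had a negative difference and 3 a positive one. The median was -0.44, with 0 genes set apart, and changed sign under some settings. Acta1 and 2 further genes of this list, Actn2 and Myh1, were highest on array 1 (14.40, 13.56 and 11.39), and Ckm on array 5 (14.32). Tnnc1, the troponin C of slow muscle, had 5.62, 12.49, 5.52 and 5.11 on arrays 4 to 7, against 5.53, 5.42 and 5.49 on arrays 1 to 3. The mean of 35 skeletal muscle genes was 13.01 on array 5, 9.31 on array 6 and 10.25 to 11.91 on the other 5. Array 6, with the highest marker mean, thus also carried the highest hair mean and the lowest muscle, adipocyte and matrix means, and the part of hair follicle tissue in its marker values was not tested.

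Along the marker mean over the 7 arrays, 124 genes (1.31%) were higher at every step and 12 (0.127%) were lower at every step. Correlations with the marker mean are given as descriptions over 7 points that share array and normalization. Since array 1 stands far from the rest, each is given again without it. Syt4 had a Pearson correlation of 1.00 (0.99 without array 1), Ptgds 1.00 (0.98), Tspan10 0.99 (0.99), Slc45a2 0.99 (0.99), Dclk2, a kinase related to doublecortin, 0.99 (0.97), Insc 0.99 (0.98), and Nup210, a nuclear pore protein, 0.99 (0.93). The correlation was lower without array 1 for Dnaic1, a dynein chain (0.99 and 0.88), Prdm16, a transcription factor (0.98 and 0.86), and Plxnd1, a semaphorin receptor (0.98 and 0.89).

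Genes with a negative relation to the marker mean covered a narrower range. Serpinb11 had 8.29, 8.52, 8.16 and 8.31 on arrays 4 to 7, against 10.27, 8.64 and 8.79 on arrays 1 to 3, with a correlation of -0.99 (-0.93 without array 1). The other 9 with the closest negative relation were Lipo3 (-0.95), Pls3, an actin-bundling protein (-0.94), Nt5e, the ectoenzyme CD73 (-0.93), Hpgds, a prostaglandin D synthase of mast cells and other blood cells (-0.93), Serpinb2 (-0.93), Gpc4 (-0.92), Gldc, a glycine-cleaving enzyme (-0.92), Mmp13, a collagenase (-0.92), and Efcab1 (-0.92). Without array 1 the correlation stayed below -0.85 for Lipo3 (-0.93), Nt5e (-0.90), Hpgds (-0.88), Gldc (-0.90) and Efcab1 (-0.94). It was -0.79 for Pls3, -0.63 for Serpinb2, -0.40 for Mmp13 and -0.17 for Gpc4.

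The same relation was tested in the 9 tumor arrays, which took no part in choosing the sides. The slope of each gene's log2 signal on the array's marker mean was fitted with limma, with day as a second term, and adjusted by Benjamini-Hochberg over the 9444 genes other than the markers. At an adjusted p under 0.05, 444 genes (4.7%) had a positive slope and 149 (1.58%) a negative one. Of the 167 genes outside the melanocyte lists that were higher on control arrays 4 to 7, 108 (64.7%) had a positive slope and 0 a negative one, and the median slope was 0.75 log2 units of signal per log2 unit of marker mean. Of the 66 genes that were lower, 0 had a positive slope and 3 (4.55%) a negative one, Adam33, Pdzd2 and Slc22a17, with a median slope of -0.68 over the 66. The median slope over all 9450 genes was 0.03.

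**Figure D3:**
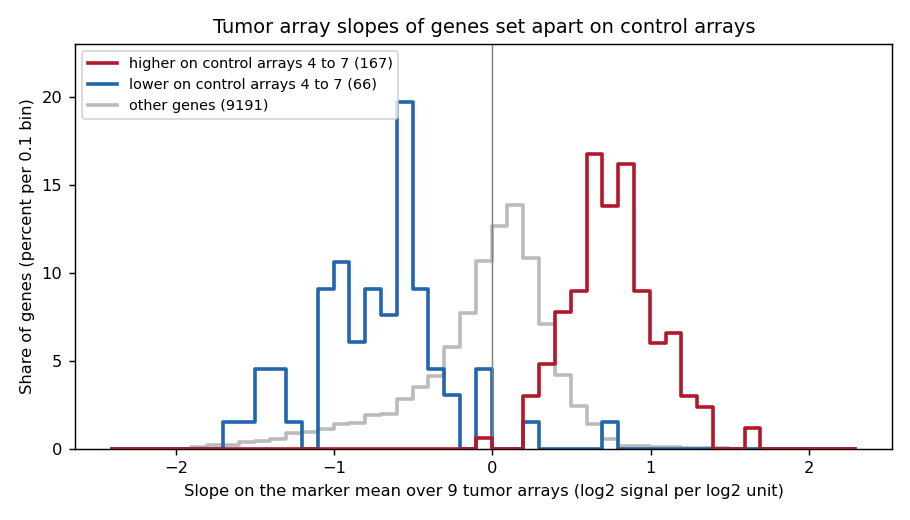
Slope of log2 signal on the marker mean over the 9 tumor arrays (horizontal axis), as the percent of genes in each bin of 0.1 (vertical axis), for 167 genes higher on control arrays 4 to 7, 66 genes lower on them and the other genes, all without the melanocyte lists. Of the 167 higher genes 166 have a slope above 0, and of the 66 lower genes 64 have a slope below 0. The median slope over all 9450 genes is 0.03, and their signs were not counted.

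Several genes at the head of the control order had steep tumor slopes. Aph1a had a slope of 1.60 with a standard error of 0.11 (limma adjusted p = 0.00234), Insc 1.38 with 0.10 (0.00234), Gpr143 1.46 with 0.11 (0.00296), Slc45a2 1.49 with 0.13 (0.00331), Ptgds 1.27 with 0.12 (0.00331) and Unc5c 1.67 with 0.16 (0.00379). Tbx4, a T-box factor of limb development, Nrcam, a neural adhesion molecule, Car14, a membrane carbonic anhydrase, and Zfp239 had slopes of 1.31, 1.19, 1.43 and 1.13 (limma adjusted p = 0.00331 each). Of these 4, Tbx4 and Nrcam were set apart on the control arrays, with differences of 2.12 and 1.89. Of the 20 other melanocyte genes, 10 had a positive slope and 0 a negative one.

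The cell cycle list followed in the tumor arrays, with 19 of 27 genes positive, against 4.7% of all genes, and 0 negative. Mcm2 had a slope of 0.90 with a standard error of 0.11 (limma adjusted p = 0.00828), Foxm1 0.82 with 0.14 (0.0216), Rrm2 0.89 with 0.14 (0.0171) and Cdk1 0.57 with 0.12 (0.0366). Of the glycolysis and hypoxia list 2 genes of 19 were positive and 1 negative, and of the respiratory chain list 1 of 17 was positive. Pgk1 had a slope of 0.65 with a standard error of 0.08 (limma adjusted p = 0.00783). Both Schwann cell genes set apart on the control arrays besides Sox10 were positive, Cdh19 at 0.90 (limma adjusted p = 0.0129) and Mbp at 0.94 (0.0254). They were the only 2 called in that list of 9, which includes the marker Sox10, and the median slope of the list was -0.05.

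The negative slopes were led by genes that the control arrays did not set apart. Stard10, a lipid transfer protein, had a slope of -0.80 with a standard error of 0.11 (limma adjusted p = 0.0118) and a control difference of -0.25. Id4, an inhibitor of helix-loop-helix factors, had -0.95 with 0.14 (0.0134), and Sdc1, a heparan sulfate proteoglycan of epithelia, -0.75 with 0.12 (0.0154), with control differences of -0.51 and -0.72. The other 7 of the 10 lowest adjusted p were C1qtnf4, Idi2, Rerg, Crip3, Dapl1, Stfa2 and Efna3, with slopes between -1.22 and -0.48. Their control differences ran from -0.03 for Crip3 to -2.31 for Stfa2 (-1.54 without array 1). Stfa2 was not set apart because its sides overlapped. No mast cell, immediate early or matrix gene had a negative slope past the threshold, and 1 epidermis gene, 1 epidermal lipid gene and 1 clock gene did. Mast cell genes had a median slope of -1.03 with 0 of 6 called.

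**Figure D4:**
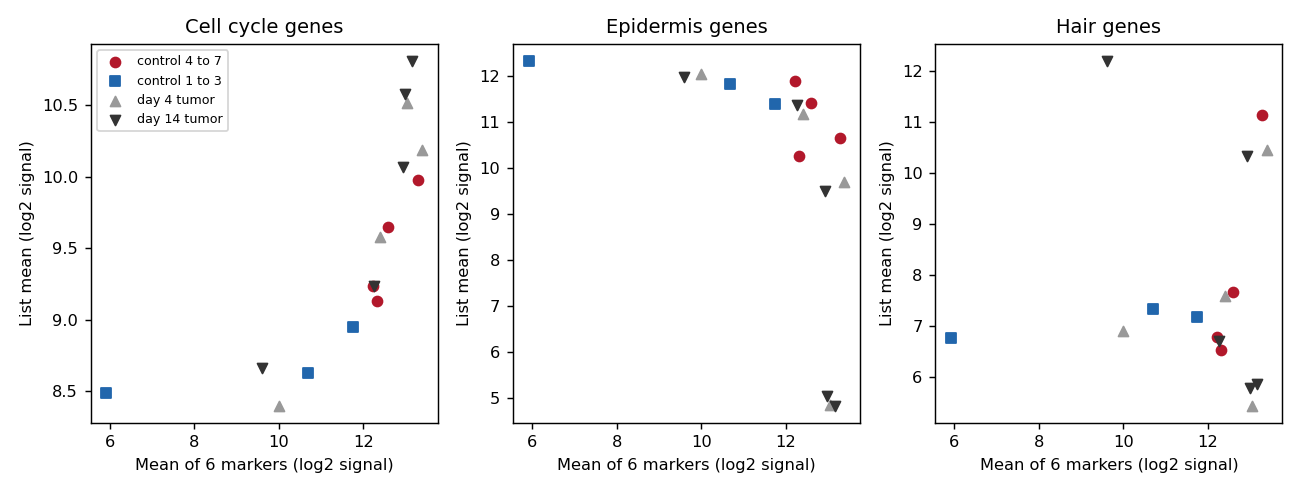
Mean log2 signal of the cell cycle, epidermis and hair lists (vertical axes) against the mean of the 6 melanocyte markers (horizontal axes) on all 16 arrays, each point 1 array. The cell cycle mean is higher at high marker means among controls and tumor arrays alike, 3 tumor arrays have epidermis means near 5, and the hair mean has no order along the marker mean.

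The tumor fit had little support from the middle of its range. Day 4 array 2 and day 14 array 4 had marker means of 10 and 9.60 and the other 7 tumor arrays 12.26 to 13.39. With day 4 array 2 left out 16 genes were positive and 0 negative. With day 14 array 4 left out, or with both left out, 0 were called in either direction, and 1846 and 1892 genes had an unadjusted p under 0.05, beside 3229 with all 9 arrays. Each other tumor array left out in turn gave 124 to 792 positive genes: day 4 array 1 gave 200, array 3 gave 277 and array 4 gave 174, and day 14 array 1 gave 792, array 2 gave 180, array 3 gave 175 and array 5 gave 124. For negative genes these were 59, 65, 29, 566, 26, 20 and 10 in the same order.

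Tissue content also differed among the tumor arrays. On 3 of them, day 4 array 4 and day 14 arrays 2 and 5, the mean of the 40 epidermis genes was 4.85, 5.04 and 4.83, against 9.50 to 12.06 on the other 6. All 3 had marker means of 12.99 or more. Without these 3 arrays 44 genes were positive and 0 negative, and of the 167 genes 30 were called, with a median slope of 0.66 and 166 above 0. Of the 66 lower genes 0 were called, the median slope was -0.44, and 61 had a slope below 0. The signs of the slopes over all genes were not counted for these 6 arrays.

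The counts on the control arrays also moved with single arrays. Without array 1, 108 genes were lower. Without array 2, 342 were higher and 181 lower. Without array 3, 106 were lower, without array 4, 110, and without array 5, 175. Without array 6, 34 were lower, and without array 7, 295 were higher and 345 lower. A rule of no overlap passes more easily with fewer arrays, so larger counts here are not stronger differences. Of the 183 higher and 66 lower genes, 118 and 47 were also set apart without array 1, and 135 and 26 without array 6.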

How the data were processed

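Per the file headers, the deposited scanner table holds a signal and a detection p-value for each probe on each array. These signals are linear intensity values as the authors deposited them, with medians of 115.8 to 155.1 on the control arrays. What software made them is not stated in the sources used here. The deposited detection p-values stood 2441 lines below their signals for most of the table and were moved back, after which p never rose with the signal on any array (0 reversals). The authors also deposited a value table of log2 values for 16247 probes, used as an alternative and for gene names, of which 14836 had 1 symbol in the platform annotation, 5 several and 1406 none listed.

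Signals of all 16 arrays were background-corrected and quantile-normalized with neqc (offset 16) of limma 3.58.1 in R 4.3.3. Probes with p under 0.05 on at least 4 arrays were kept, and the brightest probe stood for each of 9450 genes. Detected probes numbered 19466 to 21100 per control array, and the number of arrays limits the precision. No slide or date is given, and nothing says that replicates are separate mice, so p-values measure only the spread between these samples.

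The sides and the order of the control arrays were described without a test. The tumor slope was tested with limma (lmFit and eBayes, two-sided), and its scripts were tested on simulated data. The members and gene lists were chosen with earlier results of these data known. Genes considered for naming were the markers and melanocyte genes, and the 15 largest differences per direction among genes set apart. So were the 10 closest correlations per direction (SD of at least 0.5) and the 3 largest differences per list with a fixed set of tissue genes. The 10 lowest adjusted p per direction in the tumor fit were considered as well. Not all of these genes are described above. Among those left out are the melanocyte genes Mreg (a difference of 0.51) and St3gal6 (1.24) and the hair keratin Krt33a (2.78). Genes outside this rule that are named as members of a small count (Aurka, Birc5, Bub1b, Aldoc, Adam33, Pdzd2 and Slc22a17) were chosen after their values were seen. Promoter sequences are from RefSeq (GRCm38.p6).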

Additional observations from a re-analysis of the deposited data

Results flagged for a closer look

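Among the 7 control arrays, the following values lay far from the other 6, by the gap to the nearest array over the whole range (Dixon's 95% critical value). Chance alone would do this for about 1 in 20 groups of values, and several groups were looked at. The arrays were ordered by the marker values, so what is flagged there is a description of that order and not a separate result. Control array 1 was far below the others for the mean of the 6 markers (5.92), and for Tyrp1 (5.30), Dct (8.19), Pmel (5.45), Mlana (4.62) and Sox10 (7.59), which all enter that mean. Control array 6 was far above the others for the mean of the hair list (11.14) and far below them for the mean of the adipocyte list (8.88).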

How the results depend on the processing

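The 4 arrays with the highest marker mean, and the order of all 7, were the same under each normalization. Sizes and counts were less stable. Of the control counts of 183 higher and 66 lower, the authors' value table gave 90 and 16, median scaling 120 higher, an offset of 50 36 lower, no background correction 88 and 14, and a 1.5-fold limit 446 and 295. With 89 and 14 of the original genes shared, the value table called nearly a subset. Chosen after seeing the data, sides set at 10.5 on the 6 markers gave 489 and 319, and leaving out control arrays 1 and 6 together gave 96 higher. Leaving out each control array in turn gave 128 to 342 higher and 34 to 345 lower. Of the tumor counts of 444 positive and 149 negative, the value table gave 675 and 457, median scaling 801 and 519, and no day term 769 and 376. Without the 3 arrays poor in tissue genes there were 44 and 0, and without the 2 arrays of lowest marker mean, also chosen after seeing the data, 0 and 0. Leaving out each tumor array in turn gave 0 to 792 positive and 0 to 566 negative. With replicate number as a replicate block there were 1635 and 1991, but same-numbered arrays of day 4 and day 14 correlated at -0.239, -0.752, 0.311 and -0.806 in their deviations, so they share only a number. The balance of the counts was not kept under every setting. Lower genes outnumbered higher ones without control array 7 (345 and 295), and negative slopes outnumbered positive ones with the replicate block (1991 and 1635). The medians of 9 lists, none of which was tested, changed sign under at least 1 setting. They were class II, class I, hair, interferon, macrophage, muscle, neutrophil, Schwann cell and T cell genes. The causes of these shifts were not tested. Of the list medians, marker means and named genes under the alternatives, 406, 49 and 2874 values moved by less than the spread, and 11 list medians and 44 named genes moved by more. Large changes could still count as less than the spread. With the authors' value table Mitf went from 1.52 to 0.63 and Fosb from -1.48 to -0.75, and both were counted so. These counts are therefore no measure of how stable the sizes were. Low signals limit Tyr, Mlana and other genes near background on array 1, and some genes on further low-side arrays. Oca2 and Igsf11 were detected on only 1 of arrays 1 to 3. The authors' value table gave differences of 2.78 for Oca2 and 1.49 for Igsf11. Of the 167 higher genes outside the melanocyte lists, 130 were detected on all of arrays 1 to 3 and 2 on none of them. Of the 66 lower genes, 59 were detected on all of arrays 4 to 7.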
